A study of Mus musculus with 9 samples.

Results

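Transcripts that mark T cells and natural killer (NK) cells were measured in whole kidneys of mice with and without the DNA exonuclease TREX1. The 10 genes were taken from a list of marker names. They are Cd3e, Cd3d, Cd3g, Cd4, Cd8a, Cd8b1, Trbc2, Nkg7, Gzma and Gzmb, out of 54532 gene identifiers in the count tables, and each name matched 1 identifier. There were 3 groups of 3 RNA-seq libraries of polyA-selected kidney RNA. The first is WT. The second, labelled KO, is from Trex1-/- mice given PBS, a vehicle with detergent injected daily into the peritoneum for 2 weeks from about a month of age. The third, labelled KO_SN011, is from Trex1-/- mice that received SN-011, an antagonist of STING, by the same route and schedule. No source gives a treatment for the WT mice. The strain label is C57BL/6J for all 9 samples. The Trex1-/- mice came from crosses of heterozygotes, so T cells and kidney cells alike lack the gene, and the WT mice were bought from a breeding centre and are not described as littermates. The labels do not tie each library to a separate animal, so the p-values measure the spread between these libraries only.

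T cells recognise peptides through a receptor of paired alpha and beta (or gamma and delta) chains, which sits in the membrane together with the CD3 gamma, delta and epsilon chains and the zeta chain. The coreceptors CD4 and CD8 bind the peptide-presenting molecules and divide helper from cytotoxic T cells. Cytotoxic T cells and NK cells kill through granules that hold perforin and granzymes. STING is the adaptor through which cytosolic DNA, which TREX1 degrades, switches on interferon and inflammatory genes, and T cells that enter tissues are part of the disease of mice and people without TREX1.

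The 9 libraries held 16118813 to 21928965 counts, so that 3 counts, the upper limit that an observed count of 0 allows, correspond to 0.135 to 0.186 CPM (counts per 1000000 counts of the library, scaled here with TMM factors). These floors and the Poisson intervals below cover counting error only. Trex1 was listed at 0 counts in all 9 libraries, WT included. All of its 1147 exonic bases lie in exons of Atrip on the same strand, so the counts cannot check the genotype. The tissue label was checked against nephron genes, and the 4 proximal tubule markers summed to 6572 to 8256 CPM per library. Y-linked reads were present in WT replicate 3, in all 3 PBS libraries and in SN-011 replicate 2, and Xist reads in the other 4 libraries. No label gives the sex of the animals. Over all genes, SN-011 replicate 2 stood apart from its group, with 76.0 and 66.8 chi-square units per gene against replicates 1 and 3 and 15.5 between those, and WT replicate 3 did so with 31.7 and 31.5 against 7.76.

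The 10 transcripts were rare in every kidney. Together they summed to 7.64, 8.54 and 11.9 CPM in WT, to 21.8, 21.4 and 35.6 CPM in Trex1-/- with PBS, and to 8.67, 21.6 and 20.7 CPM with SN-011. The 3 PBS libraries thus lay above all WT libraries, while SN-011 replicate 1 lay within the WT range and the other two SN-011 libraries beside the lower PBS libraries. The mean sum was 2.81 times as high with PBS as in WT, 0.646 times as high with SN-011 as with PBS, and 1.82 times as high with SN-011 as in WT. Without SN-011 replicate 1, which stood apart in this sum, the last pair of ratios became 0.804 and 2.26, and without SN-011 replicate 2, which stood apart over all genes, 0.559 and 1.57. Without PBS replicate 3, the highest library, the first ratio became 2.31. In RNA from whole tissue, fewer cells of a type and less RNA per cell cannot be told apart.

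The raw counts show how little material stood behind each value. Over the 90 values of 10 genes in 9 libraries, the counts ran from 4 to 99 with a median of 26. None was 0, and 6 were under 10. All 10 genes passed the filter on low counts, which asked for 0.581 CPM in at least 3 libraries. Cd3g and Gzma exceeded that level in 1 of 3 WT libraries, Cd8b1, Trbc2 and Gzmb in 2 of 3, and Cd3d and Gzmb in 2 of 3 SN-011 libraries, as did Gzma. Cd3g and Gzma therefore entered the test mainly through the Trex1-/- libraries.

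Differences between libraries of 1 group were mostly wider than counting error. The coefficient of variation of CPM exceeded the Poisson value in 24 of 30 gene-by-group cases, with 7 of 10 in WT, 8 of 10 with PBS and 9 of 10 with SN-011. The median ratio of the observed variance to the counting variance was 2.12 in WT, 4.77 with PBS and 6.85 with SN-011. The biological coefficient of variation that edgeR fitted ran from 0.223 for Gzma to 0.390 for Cd3e, against 0.176 in common over all tested genes. Counting error alone therefore does not describe the reliability of these values.

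**Figure D1:**
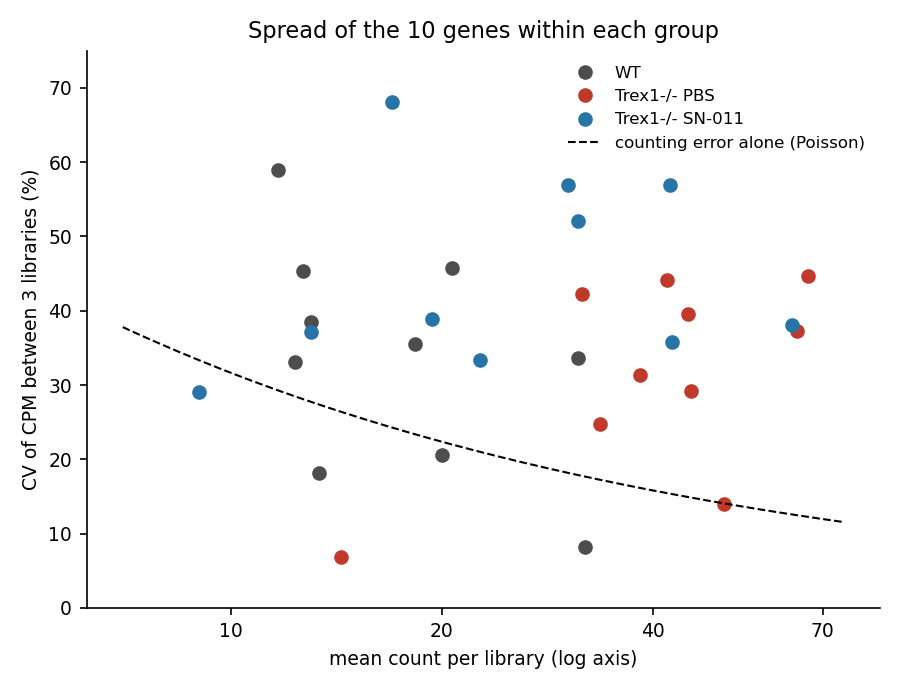
Coefficient of variation of CPM between the 3 libraries of a group (percent, y axis) against the mean count per library (x axis, log scale) for the 10 genes in each group, with the Poisson expectation as a dashed line. Of the 30 points, 24 lie above the line.

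Each gene was compared between groups with the quasi-likelihood F test of edgeR, fitted over 16646 genes and all 9 libraries, with Benjamini-Hochberg adjustment. A gene is called below when its adjusted p was under 0.05. Log2 fold changes are given with their standard errors (SE), and group levels as mean CPM ± SD over 3 libraries.

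The first comparison, Trex1-/- with PBS against WT, asked how the kidney differs without TREX1. Of the 10 T and NK cell transcripts, 2 rose, Cd3g and Cd4, and none fell. In the same comparison 1.44% of all tested genes were called higher. The fitted change was above 0 for 10 of 10 genes and the unadjusted p under 0.05 for 9 of 10, against 15.2% of all tested genes in either direction. For 9 of 10 genes, all except Gzma, every PBS library exceeded every WT library, which held for 13.1% of all tested genes. The median log2 fold change of the 10 was 1.51, beside 0.0028 over all tested genes. Their SEs ran from 0.32 to 0.51, beside a median SE of 0.16 over all tested genes.

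**Figure D2:**
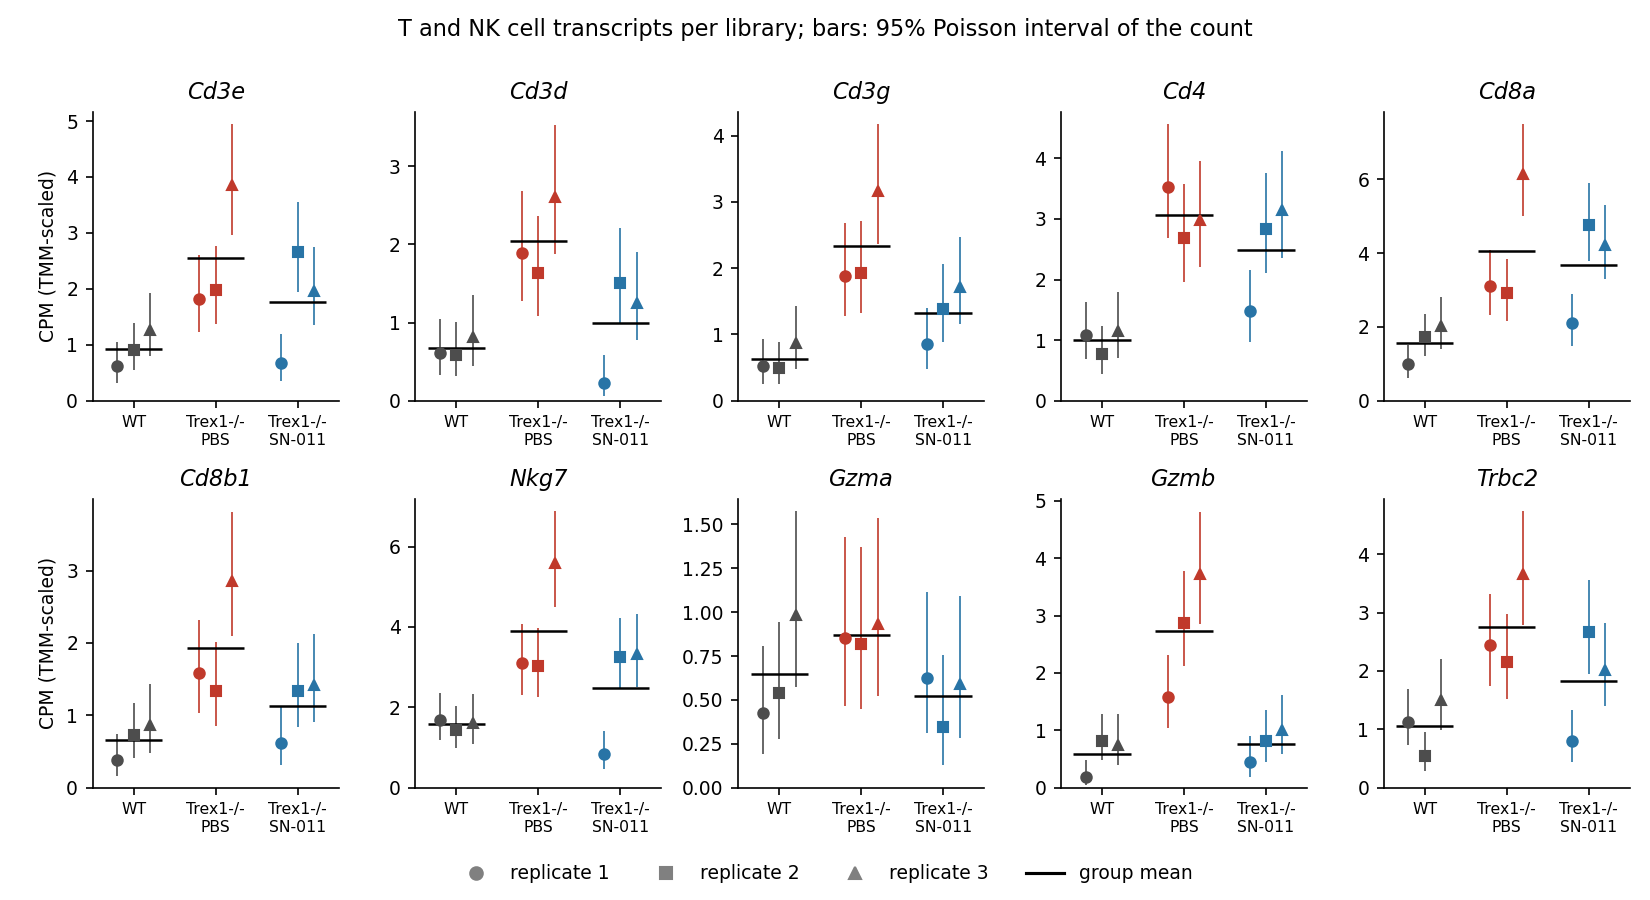
CPM of each gene (y axis, from 0) in the 9 libraries by group, with marker shape for the replicate number, 95% Poisson intervals of the count as bars and the group mean as a horizontal line. In 9 panels, all but Gzma, the 3 PBS libraries lie above the 3 WT libraries, and SN-011 replicate 1 lies lowest of its group in all panels but Gzma.

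The CD3 chains carry the signal of the T cell receptor into the cell and define T cells. Their 3 genes lie side by side on chromosome 9 of GRCm38, with Cd3g at 44969572 to 44980431 (minus strand), Cd3d at 44981786 to 44987339 (plus strand) and Cd3e at 44998740 to 45009627 (minus strand). Cd3g (ENSMUSG00000002033), the gamma chain, had 11, 11 and 15 reads in WT, 31, 33 and 51 with PBS, and 15, 24 and 29 with SN-011. On the CPM scale these were 0.628 ± 0.208, 2.33 ± 0.729 and 1.32 ± 0.440. PBS lay above both other groups without overlap, and the lowest SN-011 library (0.850 CPM) lay just under the highest WT library (0.868 CPM). Cd3g rose in Trex1-/- with PBS by 1.90 on the log2 scale (SE 0.38, adjusted p 0.0329).

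Cd3d (ENSMUSG00000032094), the delta chain, had 13, 13 and 14 reads in WT, 31, 28 and 42 with PBS, and 4, 26 and 21 with SN-011. The WT libraries were close together, whereas the SN-011 libraries spanned the widest relative range of any of the 10 genes, from 0.227 to 1.51 CPM. Its log2 fold change with PBS was 1.61 (SE 0.51, adjusted p 0.165). Cd3e (ENSMUSG00000032093), the epsilon chain, had 13, 20 and 22 reads in WT, 30, 34 and 62 with PBS, and 12, 46 and 33 with SN-011. PBS replicate 3 stood far above the other PBS libraries, and SN-011 replicate 2 exceeded the other two PBS libraries. With PBS its log2 fold change came to 1.46 (SE 0.50, adjusted p 0.197). Of the exonic bases of Cd3e, 3.3% also lie in an exon of Gm48719 on the opposite strand, and the strand setting of the counting is not given.

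Cd3g and Cd3d are transcribed away from each other, and the stretches before their starts are shown because the 3 CD3 genes share this stretch of the chromosome and had like fold changes. The sequences are from RefSeq on GRCm38.p6, 250 bases upstream of the gene start, read 5′ to 3′ on the strand of the gene, and capitals mark a match to the motif TTCNNNGAA, the palindrome of sites bound by STAT factors.
Cd3g, chr9:44980432-44980681, minus strand: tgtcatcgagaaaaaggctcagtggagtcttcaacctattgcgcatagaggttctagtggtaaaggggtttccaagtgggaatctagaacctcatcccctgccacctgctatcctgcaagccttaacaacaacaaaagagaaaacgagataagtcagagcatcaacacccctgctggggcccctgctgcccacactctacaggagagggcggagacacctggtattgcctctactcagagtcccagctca
Cd3d, chr9:44981536-44981785, plus strand: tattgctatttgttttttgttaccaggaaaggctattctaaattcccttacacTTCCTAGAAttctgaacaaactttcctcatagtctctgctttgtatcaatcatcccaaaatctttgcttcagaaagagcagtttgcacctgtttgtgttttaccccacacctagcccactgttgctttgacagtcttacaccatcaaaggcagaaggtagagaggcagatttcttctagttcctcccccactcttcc
The Cd3d stretch holds the motif from base 197 to base 189 before the start, and the Cd3g stretch does not hold it. It occurs in 7.02% of 32851 RefSeq promoter stretches of that length, searched on both strands. None of the 7 stretches available for the 10 genes (those of Cd4, Cd8b1 and Trbc2 were not used here) holds TATAAA, which 12.4% of all stretches hold.

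Trbc2 (ENSMUSG00000076498; chromosome 6, 41546730 to 41548352, plus strand) encodes 1 of the alternative constant regions of the T cell receptor beta chain. It had 24, 12 and 26 reads in WT, 40, 37 and 59 with PBS, and 14, 46 and 34 with SN-011. Every PBS library exceeded every WT library, and SN-011 replicate 1 lay inside the WT range. The log2 fold change with PBS was 1.39 (SE 0.47, adjusted p 0.192).

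Trbc2 has a near copy, Trbc1 (chromosome 6, 41538218 to 41539881), and the sequences are given because reads in their shared part cannot be assigned to either gene. Over 518 coding bases of GENCODE vM21 the genes differed at 23 bases (95.6% identity), and the first 259 were identical. The identical start of both, bases 1 to 60, and then bases 361 to 510 of each, with the 20 differing bases in capitals, read as follows.
Trbc1 and Trbc2: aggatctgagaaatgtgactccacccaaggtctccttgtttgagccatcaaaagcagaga
Trbc1: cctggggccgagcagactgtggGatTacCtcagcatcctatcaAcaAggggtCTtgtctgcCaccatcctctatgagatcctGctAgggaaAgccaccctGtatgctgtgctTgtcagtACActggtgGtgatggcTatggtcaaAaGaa
Trbc2: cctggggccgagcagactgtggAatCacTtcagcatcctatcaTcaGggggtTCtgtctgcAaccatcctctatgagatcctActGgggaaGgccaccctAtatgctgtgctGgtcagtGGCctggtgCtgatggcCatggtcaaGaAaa
Of the 543 windows of 150 bases in the Trbc2 transcript, 110 (20.3%) occurred unchanged in Trbc1, and the other 9 genes had no such window in any other gene of the annotation. Counted with its copy, the beta chain constant regions came to 1.84, 1.35 and 2.31 CPM in WT, 3.78, 3.85 and 6.84 CPM with PBS, and 1.13, 4.29 and 3.50 CPM with SN-011. The groups kept the same order as for Trbc2 alone, and the split of reads between the copies is uncertain.

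Cd4 (ENSMUSG00000023274; chromosome 6, 124864692 to 124888221, minus strand), the coreceptor of helper T cells, is also made by some myeloid cells. It had 23, 17 and 20 reads in WT, 58, 46 and 48 with PBS, and 26, 49 and 53 with SN-011. These gave 1.0 ± 0.207 CPM in WT, 3.07 ± 0.429 with PBS and 2.49 ± 0.891 with SN-011. The PBS libraries varied no more than counting error, and both Trex1-/- groups lay above WT without overlap. Cd4 rose in Trex1-/- with PBS by 1.61 on the log2 scale (SE 0.32, adjusted p 0.0329).

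Cd8a (ENSMUSG00000053977; chromosome 6, 71373427 to 71379173) and Cd8b1 (ENSMUSG00000053044; chromosome 6, 71322788 to 71337494), both on the plus strand, encode the chains of the coreceptor of cytotoxic T cells. Cd8a had 21, 38 and 35 reads in WT, 51, 50 and 99 with PBS, and 37, 82 and 71 with SN-011. Cd8b1 had 8, 16 and 15 reads in WT, 26, 23 and 46 with PBS, and 11, 23 and 24 with SN-011. Both were highest in PBS replicate 3, and for Cd8a replicates 2 and 3 of SN-011 exceeded the other two PBS libraries. The log2 fold change with PBS was 1.37 for Cd8a (SE 0.41, adjusted p 0.148). It was 1.56 for Cd8b1 (SE 0.45, adjusted p 0.130). The ratio of Cd8a to Cd4 reads overlapped between all groups, with 0.913 to 2.24 in WT, 0.879 to 2.06 with PBS and 1.34 to 1.67 with SN-011.

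Nkg7 (ENSMUSG00000004612; chromosome 7, 43437073 to 43438249, plus strand) encodes a membrane protein of cytotoxic granules in NK and cytotoxic T cells. It had 36, 32 and 28 reads in WT, 51, 52 and 90 with PBS, and 15, 56 and 56 with SN-011. Per kilobase of exonic sequence it had the highest mean level of the 10 genes (2.91 CPM per kilobase over the 3 groups), followed by Trbc2 (2.72) and Gzmb (0.944), and Cd3e the lowest (0.429). SN-011 replicate 1 was lower than every WT library, and replicates 2 and 3 lay above replicates 1 and 2 of PBS. The log2 fold change of Nkg7 with PBS was 1.30 (SE 0.45, adjusted p 0.2).

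The granzymes, proteases that killer cells deliver into their targets, differed from each other in their values. Gzmb (ENSMUSG00000015437; chromosome 14, 56258838 to 56262260, minus strand) had 4, 18 and 13 reads in WT, 26, 49 and 60 with PBS, and 8, 14 and 17 with SN-011. These gave 0.585 ± 0.344 CPM, 2.72 ± 1.08 CPM and 0.758 ± 0.282 CPM. Both WT and SN-011 lay wholly below PBS, and the lowest value, in WT replicate 1, rested on 4 reads with a 95% Poisson interval of 1.09 to 10.2. The log2 fold change of Gzmb with PBS was the largest of the 10, 2.22 (SE 0.50, adjusted p 0.0590). Gzmb was called under 6 of 19 alternatives, with adjusted p of 0.000547 to 0.228 over them. Gzma (ENSMUSG00000023132; chromosome 13, 113093825 to 113100981, minus strand) had 9, 12 and 17 reads in WT, 14, 14 and 15 with PBS, and 11, 6 and 10 with SN-011. WT replicate 3 exceeded every PBS library in CPM, and the log2 fold change was 0.44 (SE 0.39, adjusted p 0.640). With a 95% interval of -0.42 to 1.29, a difference of Gzma in either direction was not resolved at this depth. Reads of Gzmb per read of Gzma were 0.444 to 1.5 in WT, 1.86 to 4 with PBS and 0.727 to 2.33 with SN-011. Whether the change of Gzmb differed from that of Gzma was not tested.

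The stretches before the starts of both granzyme genes are shown because their values differed. They are from RefSeq on GRCm38.p6, whose start of Gzmb lies upstream of the gene model given above, with capitals for matches on either strand to TGTGGT, the core of sites bound by RUNX factors, or to GAAANNGAAA, a repeat of the kind bound by interferon regulatory factors.
Gzmb, chr14:56262335-56262584, minus strand: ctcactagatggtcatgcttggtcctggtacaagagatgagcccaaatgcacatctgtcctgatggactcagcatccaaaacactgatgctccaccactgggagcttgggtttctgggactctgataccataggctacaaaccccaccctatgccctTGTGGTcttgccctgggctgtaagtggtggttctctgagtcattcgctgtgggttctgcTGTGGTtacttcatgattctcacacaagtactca
Gzma, chr13:113100982-113101231, minus strand: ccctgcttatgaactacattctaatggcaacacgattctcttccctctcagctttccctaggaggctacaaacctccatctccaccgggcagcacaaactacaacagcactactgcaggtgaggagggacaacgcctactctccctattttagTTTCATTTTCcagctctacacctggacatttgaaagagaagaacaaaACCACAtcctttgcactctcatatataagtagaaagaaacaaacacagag
Gzmb held TGTGGT from base 93 and from base 34 before its start, and Gzma held it on the other strand from base 50. Gzma held the GAAANNGAAA repeat from base 97, on the other strand, and Gzmb did not. All 32851 RefSeq stretches of this length held TGTGGT in 14.0% and GAAANNGAAA in 2.98%, and among the 7 stretches of the 10 genes the counts were 3 and 1. A match is only a description of the letters.

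**Figure D3:**
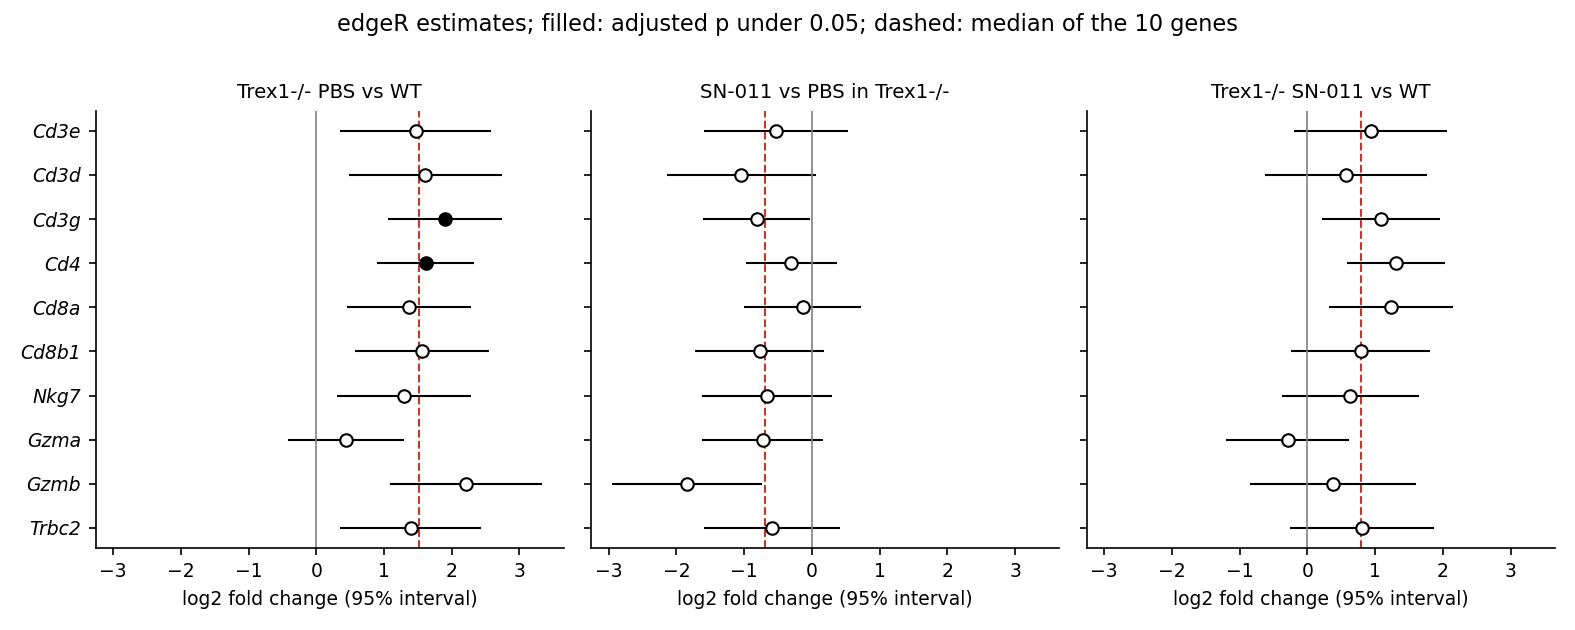
Log2 fold change with 95% interval from edgeR (x axis) of each gene in the 3 comparisons, with filled symbols for an adjusted p under 0.05 and a dashed line at the median of the 10 genes. The medians are 1.51, -0.69 and 0.79, and Cd3g and Cd4 in the first panel are the filled symbols.

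The calls of Cd3g and Cd4 rested on few libraries. With 1 PBS library or WT replicate 1 or 2 left out, neither was called (adjusted p of 0.0782 to 0.158 for Cd3g and 0.0914 to 0.160 for Cd4), while both fold changes stayed between 1.45 and 2.02. Y-linked reads were present in all PBS libraries but 1 of 3 WT libraries, and with a Y-linked term in the fit both had an adjusted p of 0.155, with log2 fold changes of 1.64 for Cd3g and 1.41 for Cd4. The median log2 fold change of the 10 genes was 1.08 in that fit, beside 1.51 in the main fit. With the replicate number as a block, Cd3g was called (adjusted p 0.0141) and Cd4 was not (0.0609). Among libraries with Y-linked reads, the 10 genes summed to 11.9 CPM in the 1 WT library, to 21.4 to 35.6 CPM in the 3 PBS libraries and to 21.6 CPM in the 1 SN-011 library. Among those without, they summed to 7.64 and 8.54 CPM in WT and to 8.67 and 20.7 CPM with SN-011, and there was no PBS library.

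The second comparison set Trex1-/- mice with the antagonist against those with PBS and asked what blocking STING alters. None of the 10 genes was called by edgeR's quasi-likelihood test, as was true of all 16646 genes (0%). Without SN-011 replicate 2 alone, 519 of 17014 genes (3.05%) were called, with still none of the 10 among them. At an unadjusted p under 0.05 there were 2 of 10, Gzmb and Cd3g, against 11.4% of all tested genes in either direction. DESeq2's Wald test and edgeR's exact test each called 1, Gzmb, where they called 1.10% and 0.770% of all tested genes, and limma-voom called 0. The fitted change was below 0 for 10 of 10 genes, with a median log2 fold change of -0.69 beside -0.0053 over all tested genes. For 4 genes, Cd3d, Cd3g, Gzma and Gzmb, every SN-011 library lay below every PBS library, which held in that direction for 8.41% of all tested genes.

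Gzmb differed most. Its 3 SN-011 libraries held 0.453, 0.811 and 1.01 CPM and its 3 PBS libraries 1.58, 2.86 and 3.73 CPM. The SN-011 values lay near the WT values of 0.189, 0.813 and 0.752 CPM. The log2 fold change was -1.84 (SE 0.50, 95% interval -2.94 to -0.73, adjusted p 0.25). Without SN-011 replicate 1 it was -1.58 (adjusted p 0.529). The adjusted p was 0.0456 by DESeq2 and 0.0143 by edgeR's exact test, and 0.0143 to 0.650 over the alternatives.

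The SN-011 libraries differed among themselves. Replicate 1 held the lowest value of its group for 9 of 10 genes, all except Gzma, and lay below every PBS library for 10 of 10. Replicates 2 and 3 lay below every PBS library for 5 of 10 genes each. They exceeded the highest WT library for 8 and 9 of 10 genes, and replicate 1 did so for 2. PBS replicate 3 held the highest value of all 9 libraries for 8 of 10 genes.

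Cd8a and Cd4 had the smallest fold changes of the 10 between the treatments. The log2 fold change of Cd8a was -0.14 (SE 0.39, 95% interval -1.01 to 0.73, adjusted p 0.920), and its sign was positive without PBS replicate 3 (0.30), without SN-011 replicate 1 (0.15) and with the Y-linked term (0.22). That of Cd4 was -0.30 (SE 0.30, 95% interval -0.97 to 0.37, adjusted p 0.744). The width of these intervals means that they do not show the levels to be alike. The remaining 7 genes had log2 fold changes from -1.04 (Cd3d) to -0.53 (Cd3e), with adjusted p of 0.422 to 0.711.

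The third comparison set Trex1-/- with SN-011 against WT. None of the 10 genes was called by edgeR's quasi-likelihood test, where 0.823% of all tested genes were called higher. At an unadjusted p under 0.05 there were 3 of 10, Cd4, Cd8a and Cd3g, against 18.0% of all tested genes in either direction. DESeq2's Wald test called 1, Cd4, where it called 2.70% of all tested genes higher, and edgeR's exact test and limma-voom called 0. The fitted change was above 0 for 9 genes and below 0 for Gzma, with a median of 0.79 beside -0.0034 over all tested genes.

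Cd4 and Cd8a were the 2 genes for which every SN-011 library exceeded every WT library, which held for 11.8% of all tested genes. For Cd4 the SN-011 libraries had 1.47, 2.84 and 3.15 CPM and the WT libraries 1.08, 0.768 and 1.16 CPM. Cd4 was 1.31 higher on the log2 scale (SE 0.32, adjusted p 0.0847), and without SN-011 replicate 1 it was 1.58 (adjusted p 0.0275). For Cd8a the SN-011 libraries had 2.10, 4.75 and 4.21 CPM and the WT libraries 0.990, 1.72 and 2.02 CPM, which gave 1.23 on the log2 scale (SE 0.41, adjusted p 0.165). Gzmb, at 0.38 (SE 0.55, adjusted p 0.769), and Gzma, at -0.29 (SE 0.41, adjusted p 0.760), were the lowest of the 10 in this comparison. Since the comparisons share libraries, their fold changes for a gene are not independent of each other.

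Other genes of T and NK cells were taken from 5 lists of 62 genes, of which 45 passed the filter. With PBS against WT, 2 of 45 rose, against 1.44% of all tested genes, and 0 fell. For 10 of the 45, Cd247 among them, no WT library and all 3 PBS libraries reached the filter's level of 0.581 CPM, so these genes entered the test through the libraries in which they were high. Over all 62 genes, untested ones included, every PBS library lay above every WT library for 35 and below every one for 1, where 13.1% of all tested genes lay above. Cd247, the zeta chain of the receptor complex, had 8, 6 and 4 reads in WT, 21, 16 and 22 with PBS, and 11, 9 and 4 with SN-011. Lcp2, the adaptor SLP-76 downstream of the receptor, had 35, 47 and 38 reads in WT, 76, 87 and 87 with PBS, and 34, 71 and 67 with SN-011. Neither gene overlapped between WT and PBS, and SN-011 lay between them in the mean for both. Cd247 rose by 1.99 on the log2 scale (SE 0.41, adjusted p 0.0380) and Lcp2 by 1.34 (SE 0.28, adjusted p 0.0436), and without any 1 of the 6 WT and PBS libraries neither was called (adjusted p 0.0622 to 0.183), nor was Cd247 with a replicate block (adjusted p 0.0595). With a Y-linked term in the fit neither was called (adjusted p 0.156 for Cd247 and 0.202 for Lcp2). Lcp2 was not called without SN-011 replicate 3 (adjusted p 0.0517). Of the exonic bases of Cd247, 56.4% also lie in exons of Pou2f1 on the opposite strand, and of those of Lcp2 6.3% in 4930469K13Rik, so part of their reads cannot be assigned without strand.

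The lists are described over all their genes, tested or not. The 19 receptor and signalling genes summed to 30.2 to 35.0 CPM in WT, 48.7 to 63.0 with PBS and 30.0 to 47.9 with SN-011, and 13 of 19 were higher in every PBS library than in every WT library. Of all tested genes, 13.1% were higher in that sense, which is the share to set beside each such count below. The 9 cytotoxic and effector genes summed to 6.46 to 7.17, 15.5 to 18.1 and 5.33 to 12.1 CPM, with 4 of 9 higher in that sense. The 12 NK receptors and regulators summed to 4.38 to 6.77, 9.88 to 11.1 and 3.74 to 7.95 CPM, with 3 of 12 higher and 1 lower, and the 16 activation, checkpoint and homing genes to 33.8 to 36.5, 43.0 to 45.3 and 27.5 to 52.8 CPM, with 13 of 16 higher. In all 4 lists the PBS sums lay above the WT sums without overlap. In the list of 16, S1pr1 made up the largest part of the sum. It had means of 24.0 CPM in WT, 22.5 with PBS and 21.9 with SN-011. SN-011 replicate 2, whose sum was the highest of that list, had 552 S1pr1 reads, against 279 and 299 in replicates 1 and 3. Ccl5, a chemokine made by effector T and NK cells, had 65, 58 and 58 reads in WT, 154, 163 and 154 with PBS, and 27, 122 and 87 with SN-011. Its log2 fold change with PBS was 1.66 (SE 0.40, adjusted p 0.0738). Ctsw, a cathepsin of killer cells, had one of 0.81 (adjusted p 0.295).

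The genes most particular to NK cells were hardly detected. Ncr1, which encodes the NK receptor NKp46, had 0 to 4 reads per library and Klrb1c 0 to 3, and neither passed the filter. Il2rb, a receptor chain for interleukins that T and NK cells share, had 41 to 53 reads in WT, 75 to 90 with PBS and 29 to 66 with SN-011, and a log2 fold change with PBS of 1.02 (SE 0.29, adjusted p 0.132). Cd160 had one of 0.60 with PBS (adjusted p 0.568), and with SN-011 against PBS one of -1.46 (SE 0.49, adjusted p 0.310).

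Of 6 genes of gamma-delta T cells, the constant regions Trdc, Trgc1, Trgc2 and Trgc4 had 0 to 10 reads per library and were not tested, nor was Cd163l1 with 4 to 12 reads. The other, Sox13, had 739 to 1161 reads and a log2 fold change of 0.01 with PBS against WT (adjusted p 0.959). S1pr1, which T cells use to leave lymphoid organs and which endothelial cells make in quantity, had 279 to 565 reads and a log2 fold change of -0.10 (adjusted p 0.872).

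**Figure D4:**
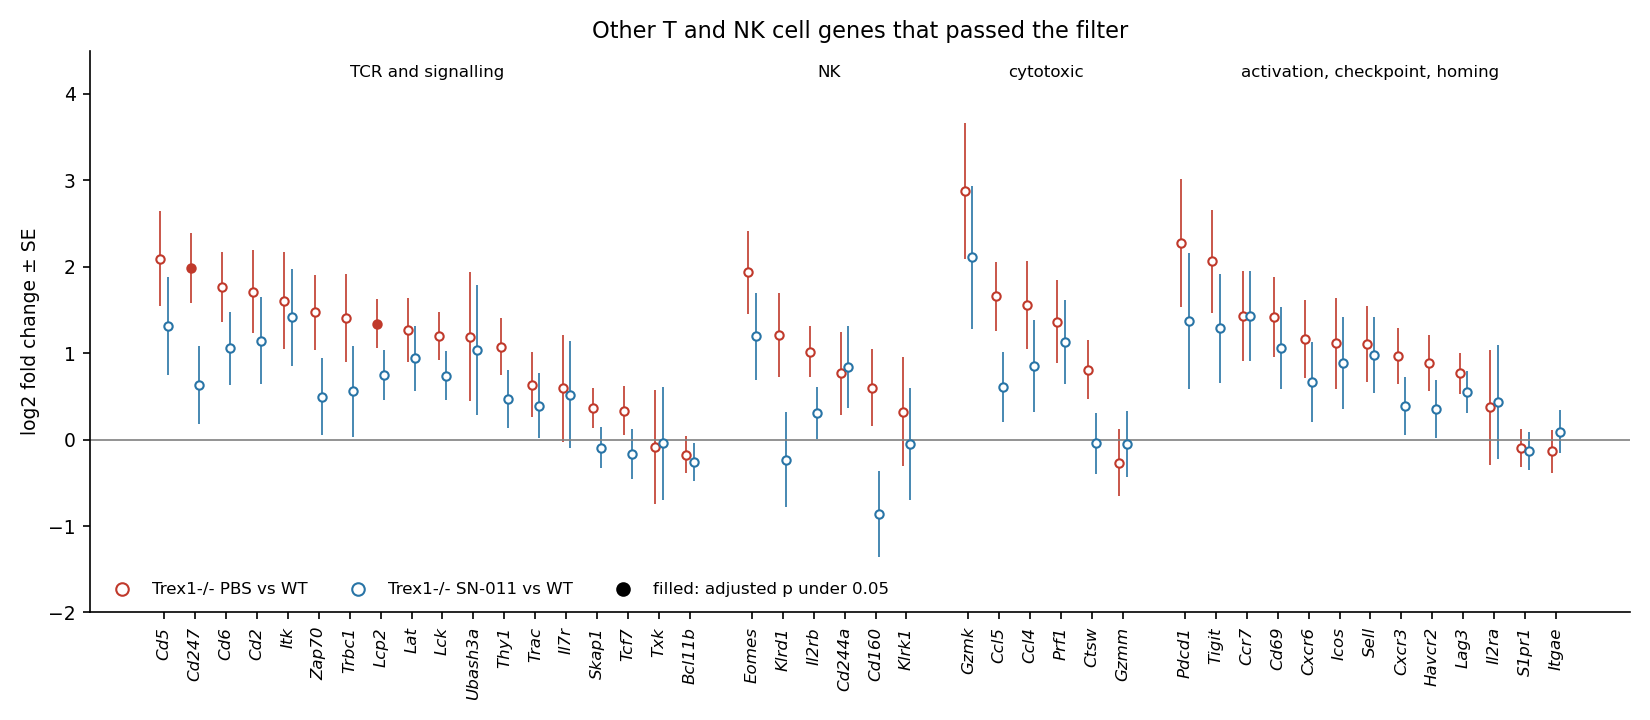
Log2 fold change ± SE (y axis) against WT of tested genes in 4 further T and NK cell lists, for Trex1-/- with PBS and with SN-011. Cd247 and Lcp2 with PBS are the filled symbols, and the other genes are not called. Genes that entered the test through the PBS libraries in which they were high are among those shown.

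In the 45 tested genes of these lists, SN-011 against PBS gave 0 called and 7 at an unadjusted p under 0.05, all lower, against 5.68% of all tested genes. Since 10 of the 45 passed the filter through the PBS libraries in which they were high, this count is not independent of the filter. Over all 62 genes, every SN-011 library lay below every PBS library for 12 and above for 0, where 8.41% of all tested genes lay below. edgeR's exact test called 1, Cd160 (adjusted p 0.0416), where it called 0.770% of all tested genes. The DESeq2 and limma-voom tests called 0, where they called 1.10% and 0% of all tested genes. SN-011 against WT gave 0 called by all 4 tests and 14 at an unadjusted p under 0.05, all higher, against 9.88% of all tested genes. In the same 10 genes no WT library reached the filter's level, so this count is not independent of the filter either. Leaving out 1 library gave at most 1 call in either comparison. One was Ccl5, which was higher with SN-011 than in WT without SN-011 replicate 1 (log2 fold change 1.02, adjusted p 0.0431). The other was Pdcd1, the checkpoint receptor PD-1, named after its values were seen, which had 2, 6 and 4 reads in WT, 15, 20 and 14 with PBS, and 2, 21 and 4 with SN-011. With all libraries its log2 fold change with SN-011 against PBS was -0.91 (SE 0.66, adjusted p 0.632), and it was called lower (-2.46, adjusted p 0.0478) only without SN-011 replicate 2, the library with its highest read count, in a fit that it entered through the PBS libraries.

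Transcripts of several other blood cell types were also higher with PBS than in WT. The 5 markers of all leukocytes summed to 49.8 to 65.8 CPM in WT, 94.9 to 112 with PBS and 55.6 to 87.5 with SN-011, and 2 of 5 were called higher with PBS, Coro1a and Cd52, against 1.44% of all tested genes, as for the counts of the next lists. The 8 macrophage markers summed to 173 to 207, 282 to 317 and 167 to 260 CPM, with 3 of 8 called higher with PBS, all complement C1q chains. The 5 plasma cell markers summed to 25.8 to 42.5, 92.7 to 112 and 67.3 to 137 CPM, with 2 of 5 called higher, Jchain and Igkc. Igkc made up most of that sum, at a mean of 17.7 CPM in WT and 68.5 CPM with PBS. Of the other markers in this list, Derl3 had 59, 38 and 48 reads in WT and 38, 23 and 28 with PBS (2.43 and 1.80 CPM in the mean). Mzb1 had means of 2.85 and 3.52 CPM and Ighm of 7.29 and 12.2 CPM, and none of these was called. Of the exonic bases of Mzb1, 57.2% are shared with SPATA24 on the same strand. In each of the leukocyte, macrophage and plasma cell sums, SN-011 replicate 1 was the lowest of its group.

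B cell markers were not among them. The 7 genes summed to 2.69 to 4.61 CPM in WT, 1.81 to 2.55 with PBS and 0.963 to 2.73 with SN-011, and 0 of the 2 tested were called. Pax5, the factor that defines B cells, had 4, 6 and 5 reads in WT and 0 or 1 in each of the 6 Trex1-/- libraries. Other genes of B cells, named like Pax5 after their values were seen, did not share that pattern. Cd79a, of the antigen receptor, had means of 0.619 CPM in WT and 0.662 CPM with PBS, and Cd22, an inhibitory receptor, 0.488 and 0.401 CPM. Lymph node stroma markers, the chemokine and follicle genes of lymphoid tissue, summed to 3.75 to 4.15 CPM in WT, 2.42 to 2.86 with PBS and 2.67 to 4.93 with SN-011. The 4 genes of this list, named after their values were seen, differed in direction. Ccl21a had 21 to 25 reads in WT, 4 to 12 with PBS and 11 to 21 with SN-011, and Cr2 44 to 61, 24 to 39 and 26 to 38. Cxcl13 had 0 to 2 reads in WT, 2 to 8 with PBS and 5 to 9 with SN-011, and Ccl19 had 23 reads in SN-011 replicate 1 and 0 to 2 in the other 8 libraries.

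Red blood cell transcripts, a measure of retained blood, summed to 539 to 1743 CPM in WT, 306 to 656 with PBS and 94.4 to 224 with SN-011. WT and PBS overlapped, SN-011 lay below both, and 2 of 5 were called lower with SN-011 than in WT, against 0.457% of all tested genes. The 4 fat cell markers summed to 20.6 to 80.4 CPM in WT, 10 to 34.0 with PBS and 9.22 to 34.6 with SN-011, with overlap between all groups. Dendritic cell markers (6 genes, 0 called) summed to 17.7 to 20, 19.6 to 22.7 and 22.1 to 24.1 CPM, neutrophil markers (5 genes, 0 called) to 2.21 to 6.94, 5.90 to 11.5 and 5.95 to 12.3 CPM, and endothelial markers (4 genes, 0 called) to 323 to 365, 337 to 359 and 282 to 375 CPM. Kidney cells' own markers were lower in part. The 6 markers of other nephron segments and podocytes (0 called) summed to 10395 to 12000 CPM in WT, 9150 to 9630 with PBS and 9536 to 10604 with SN-011, with PBS below WT without overlap. The 4 proximal tubule markers summed to 7852 to 8256, 6756 to 8120 and 6572 to 8058 CPM, and 1 of 4, the glucose transporter gene Slc5a2, was called lower with PBS than in WT, against 0.439% of all tested genes. The part of any of these lists in the T cell result was not tested.

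Relative to Ptprc, a single leukocyte gene, the differences between the groups were smaller. Ptprc, which encodes the leukocyte antigen CD45, had 9.76, 10.3 and 12.0 CPM in WT, 18.9, 20.7 and 20.4 CPM with PBS, and 11, 21.2 and 18.2 CPM with SN-011. The summed CPM of the 10 genes divided by that of Ptprc was 0.783, 0.833 and 0.990 in WT, 1.15, 1.03 and 1.74 with PBS, and 0.785, 1.02 and 1.14 with SN-011. The PBS libraries still lay above the WT libraries, the nearest pair being PBS replicate 2 and WT replicate 3, and the SN-011 libraries overlapped with both.

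**Figure D5:**
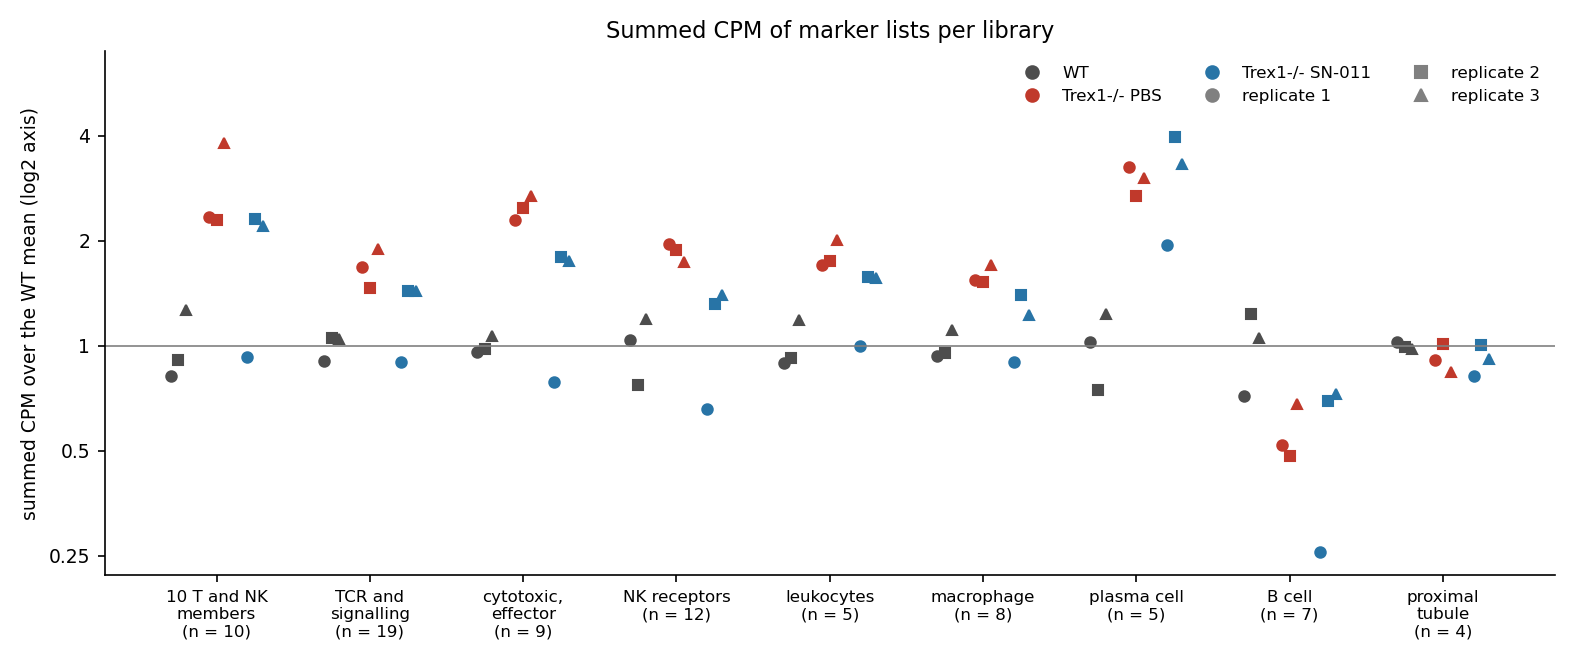
Summed CPM of marker lists in each library, divided by the WT mean (y axis, log2 scale), with colour for the group, marker shape for the replicate and n for the number of genes. The 4 T and NK lists, leukocytes, macrophages and plasma cells are higher in the 3 PBS libraries than in WT, SN-011 replicate 1 lies near or below the WT mean for all of these but the plasma cells, and B cell markers lie below it in all Trex1-/- libraries.

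Across the 9 libraries, the log2 CPM of each gene was compared with the mean of the 10, which includes the gene itself. Pearson's r ran from 0.868 (Cd4) to 0.975 (Cd8b1) for 9 genes and was 0.437 for Gzma. Among the other tested genes the 5 with the highest r with the mean of the 10 were Coro1a (0.976), the immunoglobulin segment Igkv1-135 (0.976), the MHC class II gene H2-Ab1 (0.973), the lysozyme gene Lyz2 (0.969) and Thy1 (0.969), a surface protein of mouse T cells. These values describe 9 libraries that fall into 3 groups, and the groups alone give much of any such correlation.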

How the data were processed

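Kidney RNA-seq of 9 mouse samples in 3 groups of 3 was analysed from the deposited tables, 1 per sample. According to the methods and the submitters' processing notes, the authors trimmed reads with Trimmomatic, aligned them to mm10 with HISAT2 and counted them per gene with featureCounts. Versions, annotation release and strand setting are not given in the sources used here. The deposited values are raw counts of read pairs per Ensembl gene, without normalization, and reads that fit several places were not assigned, which affects near copies such as Trbc1 and Trbc2.

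Gene symbols, positions and exonic lengths came from GENCODE vM21 (GRCm38), which held 54495 of 54532 identifiers. Promoter stretches and motif shares came from the RefSeq table of GRCm38.p6, and a start was available for 7 of the 10 genes. Counts were fitted with edgeR 4.0.16 in R 4.3.3 (TMM scaling, filterByExpr with a minimum count of 10 and a minimum total of 15, quasi-likelihood F test, a mean per group, no covariate, all 9 libraries, Benjamini-Hochberg over 16646 genes). The script was tested on simulated counts. The depth of 16118813 to 21928965 counts puts 3 counts at 0.135 to 0.186 CPM. Replicates of a group differed by 7.76 to 76.0 chi-square units per gene, so none was a repeat of another library.

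Alternatives were DESeq2 1.42.0 size factors and its Wald test, upper-quartile factors, no filter, a mean of at least 10 counts, edgeR's exact test, limma-voom (limma 3.58.1), only the 6 libraries compared, a replicate block, a Y-linked term, and leaving out each library. Summed CPM were also computed with other scalings, without single genes and, added after the data were seen, without each library.

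The 10 genes, the further lists and the alternatives were chosen with earlier results of these data known. All 10 genes were named. From each further T and NK list, the genes called in any comparison were named, or otherwise the 2 with the highest mean CPM, and the 5 genes whose log2 CPM (prior count 2) correlated best with the mean of the 10. Genes named outside this rule are marked so or serve as defining markers. A gene of the further lists that the rule selects is not reported here by name. No set test was run.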

Additional observations from a re-analysis of the deposited data

How the results depend on the processing

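With Trex1-/- PBS against WT, the 2 calls among the 10 genes became 5 with DESeq2's Wald test, 9 with edgeR's exact test, 4 without a filter, 5 with only the 6 libraries compared, and 0 with the Y-linked term, and 0 to 3 when 1 library was left out (0 without any PBS library or without WT replicate 1 or 2). Over all tested genes the share called higher moved too, from 1.44% to 2.59%, 4.68%, 1.36%, 2.88% and 0.907% under these 5 settings and to 0.824% to 2.76% with a library left out. For SN-011 against PBS the share called in either direction went from 0% to 1.10% with the Wald test, 0.770% with the exact test and 3.05% without SN-011 replicate 2. SN-011 against PBS, with 0 calls, gave 1 with the Wald test and 1 with the exact test, and SN-011 against WT, with 0, gave 1 with the Wald test, 1 without a filter and 0 to 1 with a library left out. In the further lists, the 2 calls with PBS against WT became 12, 23, 11, 15 and 0 under the same 5 settings in that order, and 0 to 10 with a library left out. There SN-011 against PBS went from 0 to 1 with the exact test and to 0 to 1 with a library left out, and SN-011 against WT to 0 to 1. Apart from the composition of the fits, the cause was not tested. The ratio of summed CPM stayed within 2.31 to 3.24, 0.559 to 0.804 and 1.57 to 2.26 in the 3 comparisons when 1 library was left out.

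Replicate numbers did not pair the samples. Same-numbered libraries had correlations of their deviations of -0.0081 to 0.13 for PBS and WT, -0.29 to 0.24 for SN-011 and WT, and 0.098 to 0.24 for SN-011 and PBS, where every library correlated best with its own number, a hint from the data only. With a replicate block the count of calls with PBS against WT stayed at 2, with Cd3g kept (adjusted p 0.0141), Cd4 lost (0.0609) and Gzmb gained (0.0101). In the further lists Cd247 lost its call (0.0595) and the count stayed at 2. The count stayed at 0 in the other two comparisons.

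Fold changes near 0 changed sign under some settings. For SN-011 against PBS, Cd8a was 0.22 with the Y-linked term and -0.37 to 0.30 with a library left out (0.30 without PBS replicate 3 and 0.15 without SN-011 replicate 1), S1pr1 was 0.19 and -0.42 to 0.15 (0.013 without PBS replicate 1, 0.15 and 0.096 without SN-011 replicate 1 or 3), and Sox13 was -0.044 and -0.025 to 0.11 (-0.025 without PBS replicate 3). For SN-011 against WT with a library left out, Gzma was -0.52 to 0.10 (0.10 without WT replicate 3), Gzmb -0.052 to 0.72 (-0.052 without WT replicate 1), S1pr1 -0.52 to 0.052, Ctsw -0.52 to 0.14, and Sox13 -0.0078 to 0.12. For PBS against WT, Sox13 was -0.010 with upper-quartile factors and -0.061 to 0.076 with a library left out. DESeq2 gave no adjusted p for Cd3d, Cd8b1 and Gzma with SN-011 against PBS. Counts of 4 to 99 reads and 3 libraries per group limit what could be resolved for these genes.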

Other observations

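The values here were picked out after they were seen and carry no test and no explanation. The ratio of Cd8a to Cd8b1 reads, the chains of 1 coreceptor, did not overlap between the groups. It was 2.63, 2.37 and 2.33 in WT, 1.96, 2.17 and 2.15 in Trex1-/- with PBS, and 3.36, 3.57 and 2.96 with SN-011, with 8 to 46 reads of Cd8b1 behind each value.

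Gzma reads per read of the 3 CD3 genes were 0.243, 0.273 and 0.333 in WT and 0.152, 0.147 and 0.0968 with PBS, without overlap, while the SN-011 libraries had 0.355, 0.0625 and 0.12 and spanned both. Gzmb reads per CD3 read were 0.108 to 0.409 in WT, 0.283 to 0.516 with PBS and 0.146 to 0.258 with SN-011, so that PBS and SN-011 did not overlap.

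Foxp3, the factor of regulatory T cells, had 3, 4 and 2 reads in WT, 8, 5 and 4 with PBS, and 8, 21 and 7 with SN-011. Ctla4, a checkpoint receptor that these cells carry, had 0, 0 and 1 reads in WT, 3, 3 and 3 with PBS, and 3, 10 and 1 with SN-011. The highest count of both was in SN-011 replicate 2, and neither gene was tested in the main fit where it fell under the filter. Of the exonic bases of Foxp3, 18.6% are shared with Flicr on the same strand.

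Trac, the constant region of the alpha chain, had 30, 107 and 43 reads in WT, 70, 67 and 88 with PBS, and 54, 75 and 69 with SN-011. In CPM, WT replicate 2 had 4.83 against 1.41 and 2.49 in the other WT libraries, and the highest level was that of PBS replicate 3, 5.47. In the same WT library Trbc2 had 12 reads, Cd3d 13 and Cd3g 11.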
